A study of Mus musculus with 12 samples.

Results

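Autophagy delivers cytoplasm to the lysosome in a double membrane, the autophagosome. Its core proteins act in order: a kinase complex starts the process, a lipid kinase marks the membrane, ATG9A brings lipid, and a conjugation system related to that of ubiquitin fixes proteins of the ATG8 family (LC3 and GABARAP) to the growing membrane. USF2 is a basic helix-loop-helix leucine zipper transcription factor that binds the E-box, the palindrome CACGTG, and the related factor TFEB, which binds a similar motif, is known for regulating autophagy and lysosome genes.

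The 10 genes described here stand for these steps: Ulk1 (initiating kinase), Becn1 (subunit of the lipid kinase complex), Atg9a (membrane protein that supplies lipid), Atg3, Atg5, Atg7 and Atg12 (conjugation), Map1lc3b and Gabarapl1 (ATG8 proteins) and Sqstm1 (p62, a cargo receptor). They were chosen by name, for their roles, with earlier results of these data known. They are 10 of 21887 protein-coding genes in the gene table. A gene counted as called in a peak list when the summit of a USF2 peak lay within 1000 bp of either end of its annotated span, a gene-end peak, or inside it. The data are chromatin immunoprecipitation sequencing (ChIP-seq) of USF2 in mouse embryonic fibroblasts (MEFs) of the genotype labelled WT. Of the 12 samples of the series, 4 are used: 2 libraries after glucose starvation (starved 1 and 2) and 2 from cells labelled Normal (normal 1 and 2). The labels give neither the length of starvation nor the origin of the cells. Whether the replicates are separate cultures is not stated either, so p-values measure only how these libraries vary, which may be technical variation. The input libraries and the H3K27ac libraries of Usf2 WT and KO cells were not analysed here. ChIP peaks carry no check of the cell type against its markers.

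The deposited lists held 825 and 1186 peaks for the starved and 1645 and 2124 for the normal libraries. The narrowest peak was 306 bp in both starved and 152 bp in both normal lists, so calling differed between the conditions. Reads at a summit were recovered from each peak's fold enrichment and p-value. Their median was 8 and 6 in the starved and 5 and 6 in the normal lists, and the fewest at any called summit was 3 in each list. A gene without a call did not pass the caller's threshold at this depth, which does not show absence of binding. Coordinates are those of GRCm38.

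Among the 10 genes, Atg3 was called in all 4 lists. Map1lc3b was called in starved 1 alone and Atg9a in normal 2 alone. The other 7 genes, Atg5, Atg7, Atg12, Becn1, Gabarapl1, Sqstm1 and Ulk1, had no call in any list. Every call was a gene-end peak, so 3 of the 10 genes had one in at least 1 list, against 4.05% of all protein-coding genes. Because the genes were chosen with earlier results of these data known, no enrichment is read from these shares.

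The sequence between the starts of Atg3 and of its neighbour Slc35a5 is shown because the 4 Atg3 peaks lie on it. The 30-base stretches at Atg5 and Atg7 are shown because these genes carry the same hexamer near a start without a call. All are from the RefSeq promoter table (GRCm38.p6), which gives 250 bases before and 50 from each annotated start, and each is written 5′ to 3′ on the strand of the gene, here the plus strand, with the E-box CACGTG in capitals.
Atg3, chr16:45158674-45158828: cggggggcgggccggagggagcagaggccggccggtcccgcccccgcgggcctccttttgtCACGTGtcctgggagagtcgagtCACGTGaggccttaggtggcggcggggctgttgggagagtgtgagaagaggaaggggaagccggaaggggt
Atg5, chr10:44268313-44268342: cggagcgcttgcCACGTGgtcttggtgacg
Atg7, chr6:114670952-114670981: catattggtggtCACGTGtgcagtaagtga

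Atg3 encodes the E2-like enzyme that passes LC3 and GABARAP proteins to the membrane lipid phosphatidylethanolamine. Its gene spans positions 45158829 to 45188538 of chromosome 16 on the plus strand, and its peaks lay across the start. In the starved libraries, starved 1 had a peak from 45158552 to 45158884 with a fold enrichment of 6.66 and a −log10 q of 7.98, which ranked 200 of 825. Starved 2 had one from 45158608 to 45158963, with a fold enrichment of 7.13, a −log10 q of 8.37 and rank 217 of 1186. In the normal libraries, normal 1 had a peak from 45158641 to 45158868 with a fold enrichment of 8.05, a −log10 q of 10.5 and rank 205 of 1645. Normal 2 had one from 45158658 to 45158879, with a fold enrichment of 7.91, a −log10 q of 11.2 and rank 232 of 2124. The ranks lay between 200 and 232 in lists of different length. As a share of list length they were 24.2% and 18.3% in the starved and 12.5% and 10.9% in the normal lists. All 4 peaks shared the 211 bp from 45158658 to 45158868. No 2 of them had an identical start or end. Enrichments of separately called lists of different depth and width were not compared with each other, so no change of Atg3 between the conditions was computed.

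**Figure D1:**
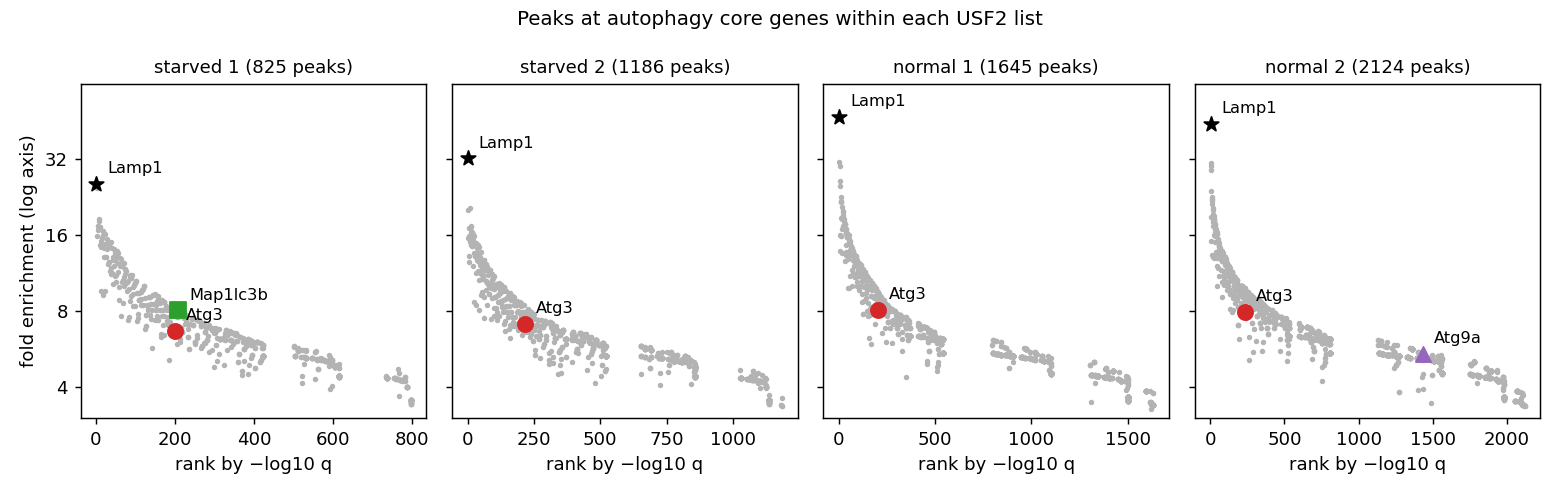
Fold enrichment (log axis) of every peak against its rank by −log10 q, 1 panel per USF2 list, with the peaks at Atg3, Map1lc3b and Atg9a and, for scale, at Lamp1. Atg3 appears in all 4 panels at ranks 200, 217, 205 and 232, Map1lc3b in starved 1 and Atg9a in normal 2 only.

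The Atg3 summits rested on 18 reads in starved 1 (95% exact Poisson interval 10.7 to 28.4) and 17 in starved 2 (9.90 to 27.2). They rested on 19 reads in normal 1 (11.4 to 29.7) and 21 in normal 2 (13.0 to 32.1). These intervals overlap and cover counting error only. Total read numbers per library are not given, so the overlap does not compare binding between the lists. The local background expected at the summit was 1.85 and 1.52 reads in the starved and 1.48 and 1.78 in the normal lists. This was above the median over all peaks of the same list, 0.370 and 0.254 in the starved and 0.144 and 0.162 in the normal lists. Over the genes with a gene-end peak, taking the best such peak of each, the median was nearer to it, at 0.988 and 1.02 in the starved and 0.593 and 0.594 in the normal lists. By reads at the summit Atg3 ranked 134 and 175 in the starved and 132 and 116 in the normal lists, and by fold enrichment 264 and 250 in the starved and 242 and 352 in the normal lists. Its standing therefore depended on whether the local background entered the measure. For scale, the strongest peak of each list, at the lysosomal membrane gene Lamp1, had 56 and 60 reads in the starved and 80 and 75 in the normal lists. Within its own list the Atg3 fold enrichment was 26.1% and 22.1% of that at Lamp1 in the starved and 17.1% and 17.9% in the normal lists. The Lamp1 fold enrichment itself was 25.5 and 32.3 in the starved and 47.0 and 44.1 in the normal lists. These percentages are therefore not compared between lists.

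**Figure D2:**
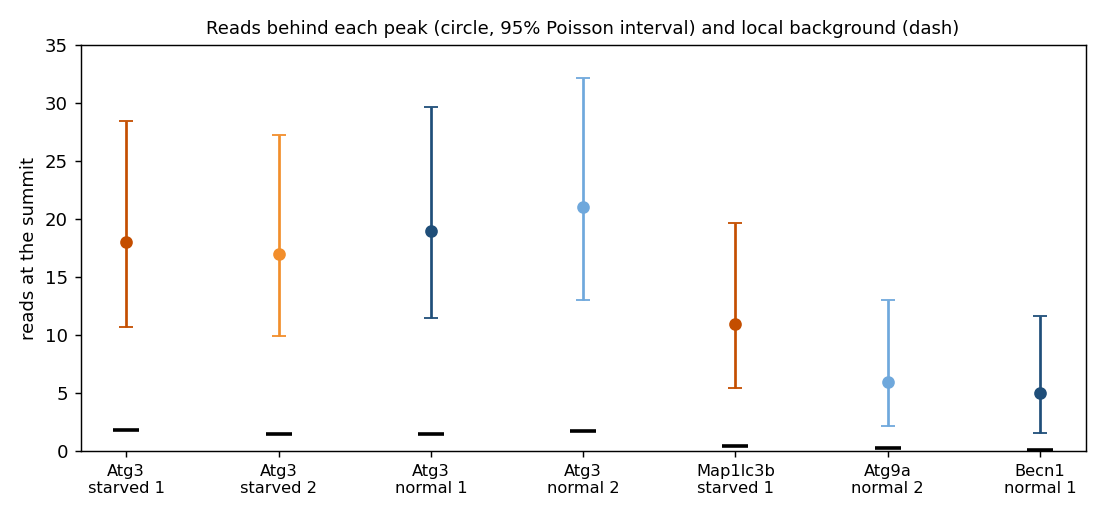
Reads at the summit (circles, with 95% exact Poisson intervals) and the local background (dashes) for each peak at Atg3, Map1lc3b, Atg9a and, beyond the 1000 bp limit, Becn1. The 4 Atg3 summits lie between 17 and 21 reads, above the single peaks of the other genes.

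The sequence under the Atg3 peaks holds a pair of E-boxes. The first runs from position −94 to −89 and the second from −71 to −66, counted from the annotated start, and both extend to TCACGTG, the first on the strand shown and the second on either strand. Both hexamers lay inside all 4 peaks. The gap from the summit to the nearer hexamer was 41 bp in starved 1, 78 bp in starved 2, 9 bp in normal 1 and 0 bp in normal 2. The summit was 135 bp upstream of the start in starved 1 and 12 bp downstream of it in starved 2. It was 80 bp upstream in normal 1 and 68 bp upstream in normal 2. The normal summits were 12 bp apart, and the starved ones, from wider peaks, 147 bp apart, 1 on each side of the E-boxes.

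**Figure D3:**
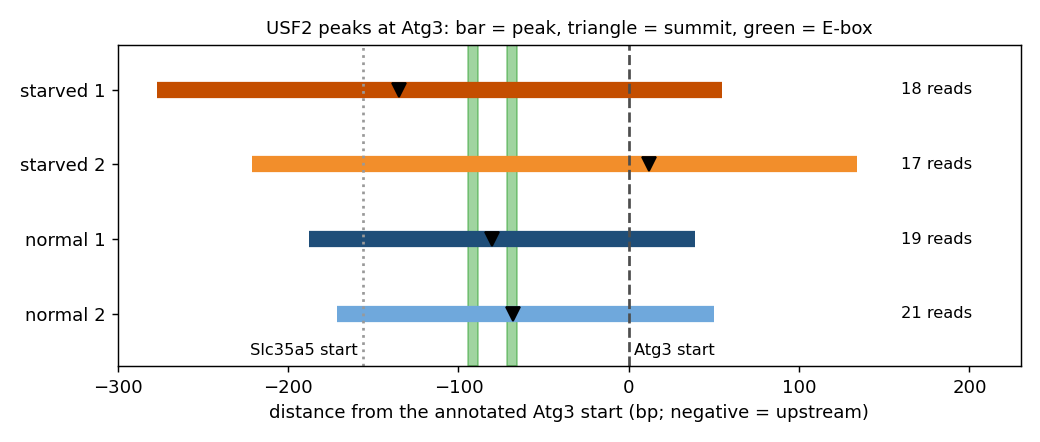
The 4 USF2 peaks around the annotated Atg3 start, as distance from it in bp (bars: peaks; triangles: summits; green: the 2 E-boxes; lines: the starts of Atg3 and Slc35a5). The E-boxes lie inside every peak, and the 2 normal summits are nearer to them than the 2 starved summits.

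The site cannot be assigned to Atg3 alone. Slc35a5, a gene of the nucleotide sugar transporter family, starts at position 45158673 on the minus strand, so the 2 genes diverge, with 155 bases between their starts, and share the E-boxes. The summits lay 21 and 168 bp from the Slc35a5 start in the starved and 76 and 88 bp in the normal lists.

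E-boxes were searched as CACGTG, which reads the same on both strands, and as TCACGTG on both strands, which contains it. Of 32851 promoter windows of 300 bases in the table, 7.15% held CACGTG, 0.594% held it at least 2 times and 3.77% held TCACGTG. Of the windows with a USF2 summit inside, CACGTG was in 87.0% (of 292) and 85.5% (of 332) in the starved and in 69.1% (of 379) and 64.1% (of 407) in the normal lists. Those with CACGTG numbered 254 and 284 in the starved and 262 and 261 in the normal lists. Those without it numbered 38 and 48 in the starved and 117 and 146 in the normal lists. The normal lists are longer, and these shares were not computed at equal list length. No difference between the conditions is therefore read from them. Of the 150 windows with a summit in all 4 lists, which include those of Atg3 and Slc35a5, 92% held CACGTG and 42% held it at least 2 times. Windows of neighbouring starts can overlap, so they are not independent.

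**Figure D4:**
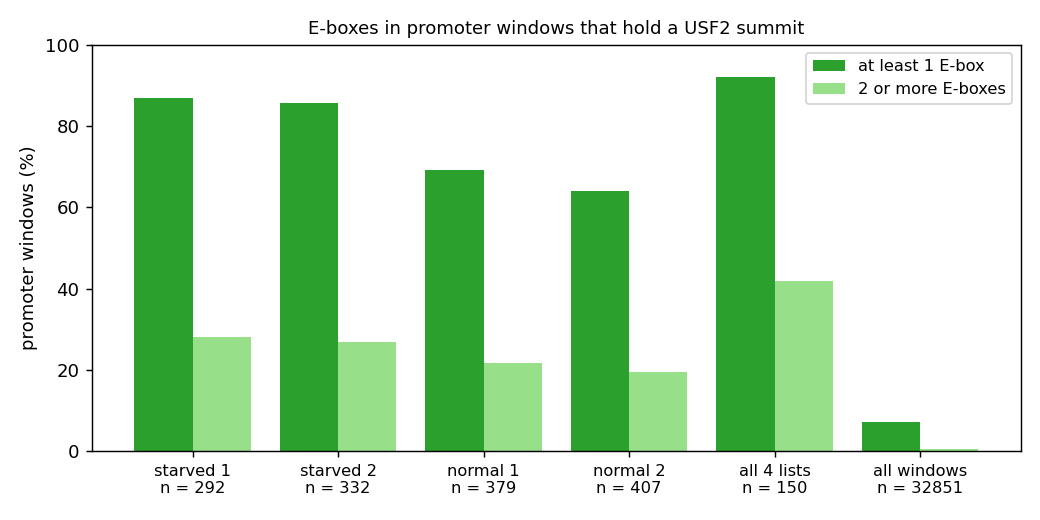
Share of promoter windows (%) with at least 1 E-box (CACGTG) and with 2 or more, for windows that hold a USF2 summit in each list, in all 4 lists, and for all windows. Windows in all 4 lists reach 92% and 42%, against 7.15% and 0.594% of all windows.

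The other conjugation genes had no call. Atg7 encodes the E1-like activating enzyme, Atg12 the ubiquitin-like protein, and Atg5 the partner to which ATG12 is joined. The Atg5 window held 1 CACGTG at −14 to −9, not extended to TCACGTG, and the nearest summit was 165.3 and 165.2 kb from the gene in the starved and 76.1 kb in both normal lists. The Atg7 window held 1, extended to TCACGTG, at −132 to −127 of a start that lies 27969 bp inside the annotated span, and the nearest summit was 392 to 1347 kb away. For Atg12 (chromosome 18) it was 480 to 4500 kb away over the 4 lists. Most windows with an E-box had no summit in them. Of the 2349 windows with CACGTG, a summit lay in 10.8% and 12.1% in the starved and in 11.2% and 11.1% in the normal lists. For the 195 windows with at least 2, it was 42.1% and 45.6% in the starved and 42.1% and 40.5% in the normal lists. Of the 30502 windows without CACGTG, 0.125% and 0.157% held a summit in the starved and 0.384% and 0.479% in the normal lists, which are longer.

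Map1lc3b encodes LC3B, the ATG8 protein commonly used to follow autophagosomes. Its single peak, in starved 1, ran from 121590416 to 121590820 on chromosome 8, with a fold enrichment of 8.05, a −log10 q of 7.81, rank 208 of 825 and 11 reads at the summit (5.49 to 19.7). In that list its rank was near that of Atg3, with fewer reads over a lower background of 0.491. The summit was 94 bp downstream of the annotated start. In starved 2, the other library of the condition, the nearest summit was 231 kb away, and in normal 1 and 2 it was 231 and 140 kb away. The call thus rests on 1 library. The promoter window of Map1lc3b holds no CACGTG, but it covers 72 of the 405 bp of the peak and not its summit. Gabarapl1, the other ATG8 gene of the set, had its nearest summit 930 to 2550 kb away and no CACGTG in its window.

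Atg9a is transcribed on the minus strand of chromosome 1 (75180861 to 75192010). Its peak in normal 2, from 75180386 to 75180572, had a fold enrichment of 5.40, a −log10 q of 3.29 and 6 reads at the summit (2.202 to 13.1). It ranked 1438 of 2124, a place shared by 52 peaks of the same −log10 q. The summit lay 376 bp beyond the far end of Atg9a, 11525 bp from its start, and 93 bp upstream of the start of Abcb6, a gene of an ATP-binding cassette transporter of porphyrins. The Abcb6 window, which holds the whole peak, has no CACGTG. In the starved lists the nearest summits were 38.1 kb from Atg9a, at Cnppd1 and Retreg2, and in normal 1 the nearest was 2333 kb away.

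Becn1 encodes Beclin 1. It had no call. Normal 1 had a peak outside the 1000 bp limit, on chromosome 11 from 101304144 to 101304295. Its summit lay 1956 bp beyond a gene end, with a fold enrichment of 5.22 and 5 reads (1.62 to 11.7). The nearest summit in the other lists was 34.6 and 201 kb away in the starved lists and 34.6 kb in normal 2. Sqstm1, whose product binds ubiquitinated cargo and LC3, had its nearest summit 220 kb away, at Rufy1, in both starved lists and 43.0 and 43.1 kb away, at Tbc1d9b, in the normal lists. For Ulk1 it was 908 and 940 kb in the starved and 918 and 470 kb in the normal lists. The windows of Sqstm1, Ulk1 and Atg9a held no CACGTG. Of the 10 genes, 8 had a window in the table, and Atg12 and Becn1 had none.

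**Figure D5:**
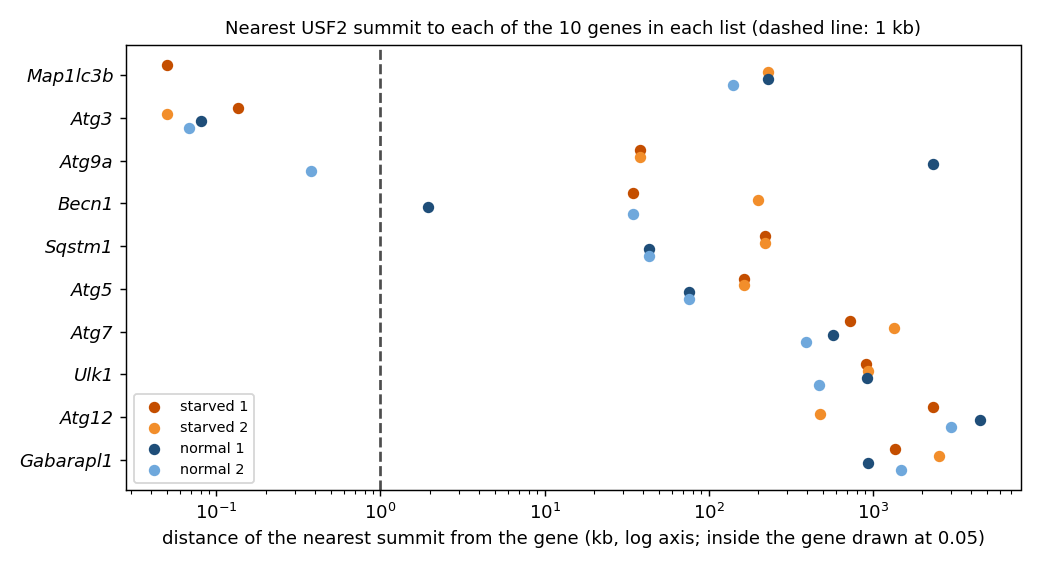
Distance (kb, log axis) from each of the 10 genes to the nearest USF2 summit in each list, with summits inside a gene drawn at 0.05 kb and the 1 kb limit dashed. Only Atg3 has all 4 points left of the line, Map1lc3b and Atg9a have 1 each, and the Becn1 point of normal 1 lies beyond it at 1.956 kb.

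The number of genes called did not separate the conditions. It was 2 and 1 of 10 in the starved and 1 and 2 of 10 in the normal lists, with gene-end peaks called for 2.01% and 2.3% of all protein-coding genes in the starved and 2.54% and 2.68% in the normal lists. With peaks inside genes these shares were 3.23% and 4.1% in the starved and 5.46% and 6.5% in the normal lists. The mean was 1.5 ± 0.71 genes in each condition (SD, n = 2 lists each), a difference of 0 (exact two-sided permutation test over 6 labelings of the lists, p = 1). With 2 against 2 lists that test cannot give a p below 0.33. Calls in both lists of a condition were left for Atg3 alone, 1 of 10 genes, against 1.78% of all genes in both starved and 2.19% in both normal lists, and it was also 1 of 10 in all 4 lists, against 1.13%. None of the 10 was called at a gene end in both lists of one condition and neither of the other, which held for 0.557% (starved) and 0.841% (normal) of all genes. With 1 gene called in this way, nothing particular to the group is read from these shares.

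The rest of the autophagy pathway, 49 further genes on a list of 59, had no gene called in both lists of either condition, against 2.48% of all genes in both starved and 4.08% in both normal lists with peaks inside genes counted. In at least 1 list 6 of the 49 were called, against 10.5% of all genes. The starved lists called 0 and 2 of the 49 and the normal lists 1 and 4, or 1 ± 1.41 and 2.5 ± 2.12 genes (SD, n = 2 lists each; exact two-sided permutation test, p = 0.667). Here too the test cannot give a p below 0.33, so it could not separate the conditions. With each list limited to its 825 best peaks the difference was 0. None of the 5 genes of the initiating ULK1 complex, Ulk1 included, and none of the 8 genes of fusion with lysosomes was called in any list. With groups this small, and 10.5% of all genes called in at least 1 list, nothing is read from this. Wipi1, a protein that binds the lipid made by the Becn1 complex, was called in starved 2 (fold enrichment 6.73, 10 reads) and normal 2 (5.49, 11 reads), with summits 2874 and 2883 bp downstream of its start. This was the only one of the 49 called in 2 lists. Normal 2 alone called Atg16l2, a relative of the conjugation scaffold Atg16l1 (5.40, 6 reads), the cargo receptor Optn (6.94, 8 reads) and Bnip3l, a receptor of mitochondria (6.56, 10 reads). Normal 1 alone called Retreg1, a receptor of the endoplasmic reticulum (3.64, 3 reads). Of these, Bnip3l alone had its peak within 1000 bp of a gene end (377 bp).

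Rubcn, which encodes Rubicon, a negative regulator of the Becn1 complex, was called in starved 2 alone (fold enrichment 5.29, −log10 q 3.23, rank 781 of 1186, 9 reads). The peak counted as inside the gene, 9339 bp from an end of the span, but its summit lay 24 bp upstream of another annotated start, on the minus strand. The window of that start held 1 CACGTG, 59 bp from the summit, shown here on the minus strand to set it beside those of Atg3.
Rubcn, chr16:32868437-32868466: cgcctagcacatCACGTGtacccaggttag
Windows of 8 genes of the whole autophagy list held CACGTG, 8 of 62 windows or 12.9%, against 7.15% of all windows, and that of Atg3 was the only one with 2. Of these 8 windows, 3 belong to the 10 genes, which were chosen with earlier results known. Genes without a window are left out. No enrichment is read from this share.

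Gabarap, an ATG8 gene outside the 10, illustrates a strong peak just past the wider limit of 5000 bp. All 4 lists had a summit 5.56 to 5.59 kb from it, with fold enrichments of 14.4 and 14.5 in the starved and 16.3 and 15.1 in the normal lists. That summit lay at Phf23 and Dvl2, and Gabarap was not called at 1000 or at 5000 bp.

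The genes nearest to Atg3 in their calls were sought among the 246 others with a gene-end peak in all 4 lists, by the largest difference in rank percentile over the 4 lists. Slc35a5 has the same peak, so its difference is 0. It was followed by Pcm1, a gene of centriolar satellites (2.02 percentage points), by Ldhd, D-lactate dehydrogenase, and Znrf1, a ubiquitin ligase, which share a peak (3.39 for both), and by Commd8, of endosomal recycling (4.32). Their fold enrichments were 6.72 and 6.65 in the starved and 7.91 and 8.27 in the normal lists for Pcm1. For Ldhd and Znrf1 they were 7.47 and 7.83 in the starved and 9.65 and 10.7 in the normal lists, and for Commd8 7.01 and 7.56 in the starved and 11.4 and 9.36 in the normal lists. The windows of Commd8 and Ldhd held 2 and 1 CACGTG, those of Znrf1 held 0, and Pcm1 has no window in the table.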

How the data were processed

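USF2 ChIP-seq of 4 libraries was used, 2 per condition, grouped by their titles. Per the submitters' processing notes the build was GRCm38 and the tools included MACS2 2.2.7.1, Bowtie2 2.5.1 and deepTools 3.5.1. Their parameters, and whether inputs served as control, are not given in the sources used here. Each library has its own peak list, so replicates were not pooled. The deposited lists give per peak a fold enrichment (a ratio of pileup to local background), −log10 p, −log10 q and a score, all from the authors' peak caller. The score was not used. Fold enrichments are the authors' values and were used within a list only.

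Ranks are by deposited −log10 q over the whole list, with ties sharing the best place. Peaks were matched to the RefSeq gene table of GRCm38.p6 (chromosomes 1 to 19, X and Y), which gives no exons, so a peak's place in an exon, intron or UTR is not known. Strands and starts came from the RefSeq promoter table. Summit reads are the whole number k for which fold (k + 1)/(background + 1) and the Poisson tail returned the deposited −log10 p, within 0.001 for every peak. On simulated data, 100% of 500 pileups per list and 100% of 400 gene calls came back right. The simulated backgrounds and pileups stopped below some real values. Among these were the Atg3 background in starved 1 (1.85) and the Lamp1 pileup in normal 1 (80). For the gene calls, simulated summits lay only before the lower coordinate of a gene. Calls inside a gene or beyond its higher coordinate were therefore not tested by simulation. Total read numbers per library are not given in the files. Intervals are exact Poisson ones at 95% and leave out all but counting error.

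The members and lists were chosen with earlier results of these data known. Named were all 10 genes, every other autophagy gene with a call, the 5 genes nearest to Atg3 in rank, neighbours within 1000 bp of a summit and Lamp1. Gabarap was added after its values were seen. Alternatives varied the distance, the threshold on −log10 q, the list length, the overlap rule and the replicates. Python 3.11.15, pandas 2.3.3 and SciPy 1.17.1 were used.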

Additional observations from a re-analysis of the deposited data

How the results depend on the processing

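The Atg3 call in both lists of a condition, 1 of 10 genes, was found for either condition at 500 and 5000 bp, with −log10 q of at least 5, with each list limited to its 825 best peaks and with any overlap of 1 bp. Without 1 replicate this count was 1 to 2 in the starved and 1 to 2 in the normal condition, since Map1lc3b (without starved replicate 2) or Atg9a (without normal replicate 1) then counts from a single list. The starved minus normal difference in genes called, 0 as reported, was −0.5 at 5000 bp, where Becn1 enters normal 1, and 0.5 both with −log10 q of at least 5 and with 825 peaks per list, where Atg9a leaves normal 2. Without 1 replicate it was −0.5 to 0.5. For the 49 other autophagy genes the difference of −1.5 was −0.5 with −log10 q of at least 5 and with gene-end peaks only, 0 with 825 peaks per list and −3 to 0 without 1 replicate, the 0 without normal replicate 2. No setting brought either difference to a permutation p below 0.5. With at most 2 lists per condition p cannot fall below 0.33, so these tests could not separate the conditions and nothing is read from this. With the replicate number as a block (exact permutation over 4 labelings, smallest possible p = 0.5) the differences were 0 and −1.5 with p = 1 and p = 0.5. The calls of same-numbered libraries hardly deviated together. The correlation was −0.0015 over the 2288 genes with a call in any list and 0.0245 over all 21887 genes. This does not show whether same-numbered libraries were prepared together, and replicate 2 had the longer list in both conditions. The differences are therefore given with and without the block. Single peaks of 5 to 11 reads limit what can be said of Map1lc3b, Atg9a and Becn1.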
